A study of Mus musculus with 3 samples.

Results

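The 50 genes of the ATP-binding cassette (ABC) subfamilies A to G were examined in IEC (intestinal epithelial cells) sorted from small intestinal organoids (SIO) after co-culture with type-3 innate lymphoid cells (ILC3). Members were the protein-coding rows of the count table whose mouse symbol is Abc followed by a subfamily letter from a to g and a number, with or without a last letter. This rule took 50 of 35824 genes: 16 of subfamily A, 10 of B, 10 of C, 4 of D, 1 of E, 3 of F and 6 of G. Genes of the same superfamily that carry other symbols, such as Tap1, Tap2 and Cftr, fall outside the rule and are not described.

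The data are RNA-seq counts of 3 libraries, IEC + ILC3 A, B and C, all of one condition. SIO came from female CD45.1 C57BL/6 mice, aged 6 to 8 weeks by the sample labels, and the study's methods name the ileum as their source. ILC3 came from the small intestinal lamina propria of RORγt-GFP reporter mice, and both cell types were kept together for 4 days before the IEC were sorted. The labels give A, B and C as biological replicates, call A and B included and C excluded, and no reason for leaving out C was found in the sources used here. Organoids grown without ILC3 were not analysed here, so every value below describes co-cultured IEC and none describes an effect of ILC3.

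ABC proteins bind and hydrolyse ATP on paired nucleotide-binding domains, and most of them use that energy to move a substrate across a membrane. Subfamilies A and G hold many lipid exporters, B and C hold drug, conjugate and bile acid exporters as well as transporters of mitochondria, and D serves mainly peroxisomes. Proteins of subfamilies E and F lack membrane domains and act on ribosomes and in translation. In the gut epithelium, apical ABC pumps return sterols, drugs and conjugates to the lumen, while basolateral ones pass them towards the blood.

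Total counts were 17946361 in A, 23142849 in B and 28913885 in C, and 11986 to 12964 genes had at least 10 counts in a library, the fewest in C. Epithelial markers were high in every library, with Epcam at 1647, 1733 and 1136 CPM (counts scaled to a common library total) in A, B and C. Of 11 markers of ILC3 and lymphocytes, 6 were at 0 in every library, among them Il22 and Ncr1, and Ptprc had 1, 0 and 0 counts. The summed level of that list was 33.1 to 45.3 CPM. Markers that define ileal enterocytes were close to absent: Fgf15 was at 0 in every library, Fabp6 had 2, 8 and 0 counts, and Slc10a2, the apical bile acid carrier, had 15, 9 and 14.

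Levels are given as CPM scaled with TMM factors and, wherever genes are set against each other, divided by the length in kilobases of the gene's longest protein-coding transcript (CPM per kb). A member was called detected with at least 10 counts in every library. By that measure 26 of 50 members (52.0%) were detected, beside 10890 of 21786 protein-coding genes (49.99%). Another 21 members had under 10 counts in each library, and 11 of these were at 0 in all of them. Only Abcc8, Abcg4 and Abcb4 fell between, and the first of these, with Abcg4, was counted in library B alone. A library listing a member at 0 allowed up to 3 counts, which is a level of 0.164, 0.131 and 0.105 CPM in the order A to C, for counting error alone. Of the detected members, 11 lay above the median of detected protein-coding genes in all 3 libraries and 13 lay above it in none.

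**Figure D1:**
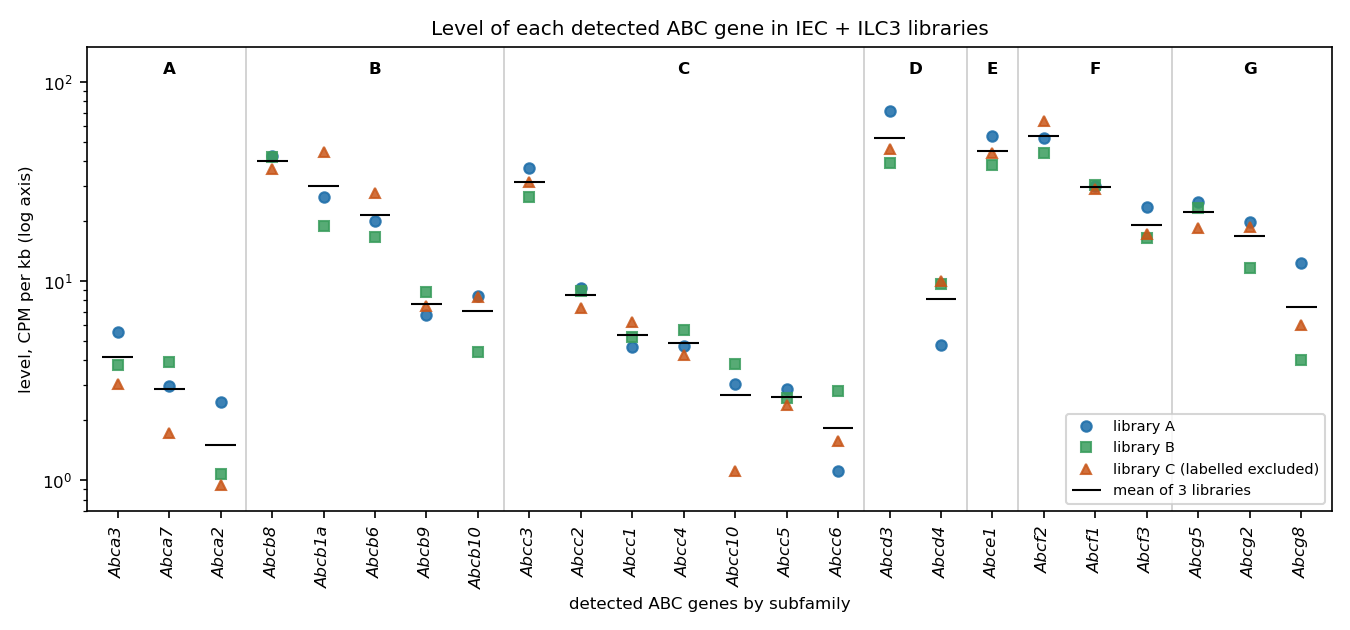
Level of 24 of the 26 detected ABC genes in CPM per kb on a log axis, by subfamily, with a point for each library and a line at the mean of 3 libraries. Abcf2, Abcd3 and Abce1 have the highest means per kb of the longest transcript, the 3 detected genes of subfamily A lie below 6 CPM per kb, and Abcc10 and Abcg8 show the widest spread between libraries.

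Sequences around 3 transcription starts are given first, since they belong to the pair of sterol exporter genes that lie head to head, to a member near 0 and to a member among the highest. They are RefSeq windows on GRCm38.p6 from 250 bases before the start to 50 after it, written 5′ to 3′ on the strand of the gene. Capitals mark, on either strand, the letters of the GC box (GGGCGG), of the box named CCAAT and of a TATA box written as TATAAA, none of which overlap each other here. The Abcg8 window (chr17:84682871-84683170, plus strand), 1 of 2 for that gene, also holds the start of Abcg5, which is read on the minus strand, and the starts lie 110 bases apart. The other windows are those of Abca1 (chr4:53159846-53160145, minus strand) and Abcf2 (chr5:24577418-24577717, minus strand).
Abcg8: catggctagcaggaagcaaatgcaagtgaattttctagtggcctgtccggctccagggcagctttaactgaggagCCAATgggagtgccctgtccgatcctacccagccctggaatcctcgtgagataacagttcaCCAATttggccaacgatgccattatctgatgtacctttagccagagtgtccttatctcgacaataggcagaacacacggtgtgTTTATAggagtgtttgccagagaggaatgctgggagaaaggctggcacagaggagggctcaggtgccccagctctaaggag
Abca1: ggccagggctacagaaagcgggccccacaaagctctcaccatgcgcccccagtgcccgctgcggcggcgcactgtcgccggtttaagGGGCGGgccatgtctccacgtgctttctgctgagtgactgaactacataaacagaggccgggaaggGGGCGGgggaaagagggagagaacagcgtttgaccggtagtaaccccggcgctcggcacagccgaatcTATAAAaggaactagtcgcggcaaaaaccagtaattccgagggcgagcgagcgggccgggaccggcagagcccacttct
Abcf2: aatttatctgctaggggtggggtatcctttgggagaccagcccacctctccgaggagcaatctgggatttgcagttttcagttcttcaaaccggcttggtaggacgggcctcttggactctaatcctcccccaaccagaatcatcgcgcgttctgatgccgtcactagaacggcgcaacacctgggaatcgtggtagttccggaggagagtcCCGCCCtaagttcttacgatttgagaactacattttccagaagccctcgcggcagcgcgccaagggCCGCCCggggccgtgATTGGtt

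A RefSeq window was found for 38 of the 50 members, 19 of them detected and 19 not, and 6 members had more than 1 window. A ratio of observed to expected CpG above 0.6 was seen for 12 of 19 detected and 7 of 19 undetected members, beside 35.8% of all 32851 windows. GGGCGG was present for 11 of 19 and 7 of 19 (35.7% of all windows), CCAAT for 8 of 19 and 7 of 19 (37.4%), and TATAAA for 4 of 19 and 2 of 19 (13.6%). A box counted for a member if any of its windows held it, while the percentages are of single windows. The 6 members with more than 1 window were all detected, so the 2 sets and the percentages are not strictly alike. Of the 45 windows of members, 26 have a start that is a coding transcript start in GENCODE M21. The Abca1 and Abcf2 windows are both rich in CpG, with ratios of 0.888 and 0.840, yet the first of these genes was near 0 and the other among the highest. The window shared by Abcg5 and Abcg8 had a ratio of 0.295 as read for Abcg8. These are descriptions of letters in a window and no sites were tested.

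Members with no membrane domain carried the largest sum of any role per kb of the longest transcript, but that rank depended on the length used. Drug, conjugate and bile acid pumps came first without length correction, with 595, 469 and 632 CPM against 504, 405 and 475 in A, B and C, and also with the median length of the coding transcripts, with 306 against 221 CPM per kb on average. Abcf2, whose product associates with ribosomes, had the highest mean of all members by the longest length, with 2452, 2588 and 4692 counts in A, B and C. Its levels of 52.2, 43.9 and 63.8 CPM per kb (53.3 ± 10.0, SD, n = 3) lay above 82.8% to 86.1% of detected protein-coding genes. Abce1, the ATPase that splits ribosomes for recycling, had 53.4, 38.3 and 44.0 CPM per kb (45.2 ± 7.60, SD, n = 3). The ranges of these genes overlapped, so their order is not beyond the spread between libraries. Abcf1, which takes part in translation initiation, was the steadiest detected member, with 30.1, 30.3 and 28.9 CPM per kb (29.8 ± 0.721, SD, n = 3). Abcf3, which in yeast has a counterpart in the Gcn2 pathway, had 23.5, 16.6 and 17.2 CPM per kb (19.1 ± 3.83, SD, n = 3), under Abcf1 in every library. With the median length Abcg2 (159 CPM per kb), Abcb8 (132), Abcf3 (69.7) and Abcc1 (59.9) stood above Abcf2 (53.3) and Abcf1 (53.2). The median lengths of those first 4 genes, 603, 940, 845 and 608.5 bases, come from transcript fragments, against 5717, 3074, 3090 and 6792 bases for the longest. In CPM with no length Abcd3 (182), Abce1 (171), Abcc3 (158) and Abcb1a (149) stood above Abcf2 (137), so the order of single members is tied to the length chosen. With the longest length, the 4 genes with no membrane domain summed to 159, 129 and 154 CPM per kb (147 ± 16.1, SD, n = 3), or 33.8% ± 0.522 of the sum over all members. Their partners in ribosome recycling and initiation were detected for 9 of 9 genes found, led by Eif2s1 (73.5 ± 32.8 CPM per kb), Eif2s2 (67.0 ± 25.4) and Eif3a (58.8 ± 8.70), each with n = 3.

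Pumps for drugs, conjugates and bile acids, the role that other lengths put first, summed to 108, 83.4 and 116 CPM per kb (102 ± 16.9, SD, n = 3), from 8 detected genes of 10. Abcc3, a basolateral exporter of glucuronides and bile acids, led them with 36.8, 26.5 and 31.7 CPM per kb (31.7 ± 5.15, SD, n = 3). Abcb1a, one of the P-glycoproteins of the mouse, had 2414, 2172 and 6336 counts, or 26.4, 18.9 and 44.3 CPM per kb (29.9 ± 13.0, SD, n = 3). Library C stood above both others for this gene, and its ranges overlapped those of Abcc3. Abcg2, an apical exporter of urate and drugs, had 19.9, 11.7 and 18.8 CPM per kb (16.8 ± 4.47, SD, n = 3), lowest in B.

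The remaining conjugate pumps were lower. Abcc2, the apical counterpart of Abcc3, had 9.19, 8.93 and 7.29 CPM per kb (8.47 ± 1.03, SD, n = 3), so that the basolateral pump was above the apical one in every library. Abcc1 (5.37 ± 0.776), a glutathione conjugate exporter, and Abcc4 (4.89 ± 0.749), which exports cyclic nucleotides among others, overlapped each other, although Abcc1 moved to 59.9 with the median length and so above Abcc4 and Abcc3. Abcc10 (2.67 ± 1.41) and Abcc5 (2.61 ± 0.231) closed the group and overlapped too, all in CPM per kb with SD and n = 3. Abcb1b, the other P-glycoprotein gene, had 0, 1 and 1 counts, and Abcb11, the bile salt export pump of liver, was at 0 in every library. Conjugating enzymes were abundant, with 18 of 18 listed genes detected, led by Gstp1 (1841 ± 97.5 CPM per kb), Gsta1 (1464 ± 612) and Gstm1 (1294 ± 469), each with n = 3.

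**Figure D2:**
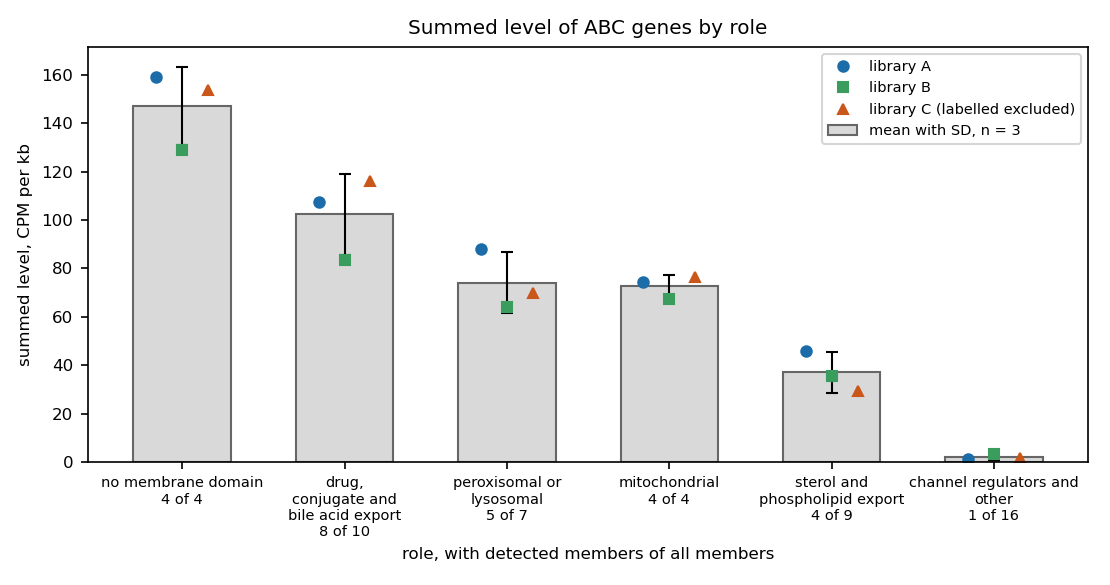
Summed level of ABC genes by role in CPM per kb, with bars at the mean of 3 libraries, error bars of 1 SD and a point for each library. Under each role stands how many of its members were detected. With the longest transcript as length, the sum falls from 147 CPM per kb for the genes with no membrane domain to 2.05 for channel regulators and other members, and the first and second place change with other lengths.

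Transporters of peroxisomes and lysosomes summed to 88.3, 64.1 and 69.9 CPM per kb (74.1 ± 12.6, SD, n = 3), and 70.5% of the mean sum was Abcd3. Abcd3, which carries branched-chain fatty acids and bile acid precursors into peroxisomes, had 71.4, 39.0 and 46.2 CPM per kb (52.2 ± 17.0, SD, n = 3). It was highest in library A, where it was the top member of all. Abcd4, a lysosomal protein needed to release cobalamin, ran the other way and was lowest in A, with 4.79, 9.69 and 10.0 CPM per kb (8.16 ± 2.93, SD, n = 3). Abcd2, a peroxisomal importer of fatty acids, had 2, 4 and 1 counts. The lysosomal peptide transporter gene Abcb9 had 6.78, 8.83 and 7.52 CPM per kb, and Abca2 had 2.48, 1.07 and 0.944, highest in A. All 14 peroxisome partners were detected, led by Acaa1a (108 ± 19.2 CPM per kb), Scp2 (101 ± 14.0) and Pex19 (64.0 ± 7.99), each with n = 3.

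All 4 mitochondrial members were detected, and their sum was among the steadier ones, 74.4, 67.4 and 76.4 CPM per kb (72.7 ± 4.73, SD, n = 3). Abcb8, which encodes a protein of the inner mitochondrial membrane, held 55.5% of it, with 42.5, 42.1 and 36.5 CPM per kb (40.3 ± 3.37, SD, n = 3). Abcb6, which has been linked to porphyrin transport, had 20.1, 16.7 and 27.9 CPM per kb (SD 5.72, n = 3) and was highest in C. Abcb10, which supports haem synthesis, was lowest in B, with 8.43, 4.38 and 8.36 CPM per kb. Of the listed partners of haem and iron-sulphur synthesis, 17 of 17 were detected, with Tmem14c (141 ± 33.2 CPM per kb) and Alad (111 ± 18.7) on top, each with n = 3.

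Exporters of sterols and phospholipids summed to 46.0, 35.6 and 29.5 CPM per kb (37.0 ± 8.36, SD, n = 3), with 4 of 9 detected. Abcg5 and Abcg8 encode the partners of the apical pump for plant sterols and cholesterol. Abcg5 had 25.0, 23.3 and 18.6 CPM per kb (22.3 ± 3.32, SD, n = 3), and Abcg8 had 12.3, 4.01 and 6.00 (7.43 ± 4.32, SD, n = 3). The ratio of Abcg5 to Abcg8 was therefore 2.03, 5.82 and 3.10 in A, B and C, above 1 in every library but uneven between them. The gene bodies overlap by 6.71 kb on opposite strands (Abcg5 at chr17:84658234-84683011, Abcg8 at chr17:84676302-84700333). Of the 31-base stretches of the longest coding transcript of Abcg5, 0.517% occur reversed in transcripts of Abcg8.

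Genes of cholesterol efflux to lipoproteins were near 0. Abca1, which loads cholesterol and phospholipid on apolipoprotein A-I, had 0, 6 and 0 counts, and Abcg1 had 3, 1 and 1. Among the listed nuclear receptors and regulators of ABC genes in general, Nr1h2 (LXRβ) had 36.3 ± 3.96 CPM per kb, behind Nfe2l2 (112 ± 28.1) and Hnf4a (67.2 ± 18.9), each with n = 3. In all, 13 of 15 listed nuclear receptors and regulators were detected. So were 13 of 14 genes listed for sterol uptake, esterification and related lipid handling. The 3 most abundant of that list, Apoa1 (551 ± 103), Lpcat3 (206 ± 20.002) and Mttp (179 ± 46.0), belong to the related lipid handling. Npc1l1, its cholesterol importer, had 26.4 ± 12.2, all in CPM per kb with n = 3. The other detected lipid exporters were Abca3, known for surfactant lipids in the lung, with 5.57, 3.80 and 3.06 CPM per kb (4.14 ± 1.29, SD, n = 3), and Abca7, a phospholipid exporter, with 2.97, 3.91 and 1.73 (2.87 ± 1.09, SD, n = 3). Abcb4, the phosphatidylcholine exporter of bile, had 10, 5 and 9 counts, Abca12, an exporter of skin lipids, had 4, 5 and 0, and Abcg4 had 0, 46 and 0.

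Among the 16 channel regulators and other members, Abcc6, whose loss leads to ectopic mineralisation, was the one detected, with 1.11, 2.80 and 1.58 CPM per kb (1.83 ± 0.870, SD, n = 3). Abcc8, a regulatory subunit of potassium channels, had 0, 55 and 0 counts. The 14 others had under 10 counts in each library, and 9 were at 0 in all, among them Abca4, a transporter of the retina, and Abca13. Of carriers and responders of bile acids, 5 of 9 were detected, with Nr1h4 (22.7 ± 1.504 CPM per kb), the bile acid receptor, above Slc51a (13.0 ± 3.81) and Slco2b1 (5.93 ± 0.579), each with n = 3. In these bulk samples, fewer cells of a type and less RNA per cell cannot be told apart.

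The subfamilies were then compared within each library. Subfamily B had the highest mean sum, with 108, 95.3 and 128 CPM per kb (110.4 ± 16.7, SD, n = 3), or 25.4% of the sum over all members. Subfamily F followed with 106, 90.7 and 109.96 (102 ± 10.1, 23.5%), from 3 genes against 6 detected ones of B. Subfamilies D (64.9 ± 12.8, 14.8%), C (57.7 ± 4.18, 13.3%), G (46.7 ± 9.31, 10.7%) and E (45.2 ± 7.60, 10.3%) lay in the middle. Subfamily A, with the most members, had the lowest sum, 11.1, 8.84 and 5.76 CPM per kb (8.57 ± 2.69, SD, n = 3), or 1.98%. Only 3 of its 16 members were detected and 8 were at 0 in every library.

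Of the 21 pairs of subfamilies, 19 kept their order in all 3 libraries, while D over C and G over E held in 2 of 3. Ranges over libraries overlapped for B and F, D and C, D and G, C and G, and G and E. Within libraries, however, the ratio of D to G was nearly constant at 1.38, 1.37 and 1.42, and B over F (1.02, 1.05 and 1.17) and C over G (1.09, 1.42 and 1.26) kept their direction as well. Subfamily B was above subfamily A by 9.68, 10.8 and 22.3 fold in the 3 libraries, and the E to A pair, the closest to A, still differed by 4.80, 4.33 and 7.64 fold. With 3 libraries a two-sided exact sign-flip test cannot go below p = 0.25, which 19 pairs reached, so this test could call no pair.

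**Figure D3:**
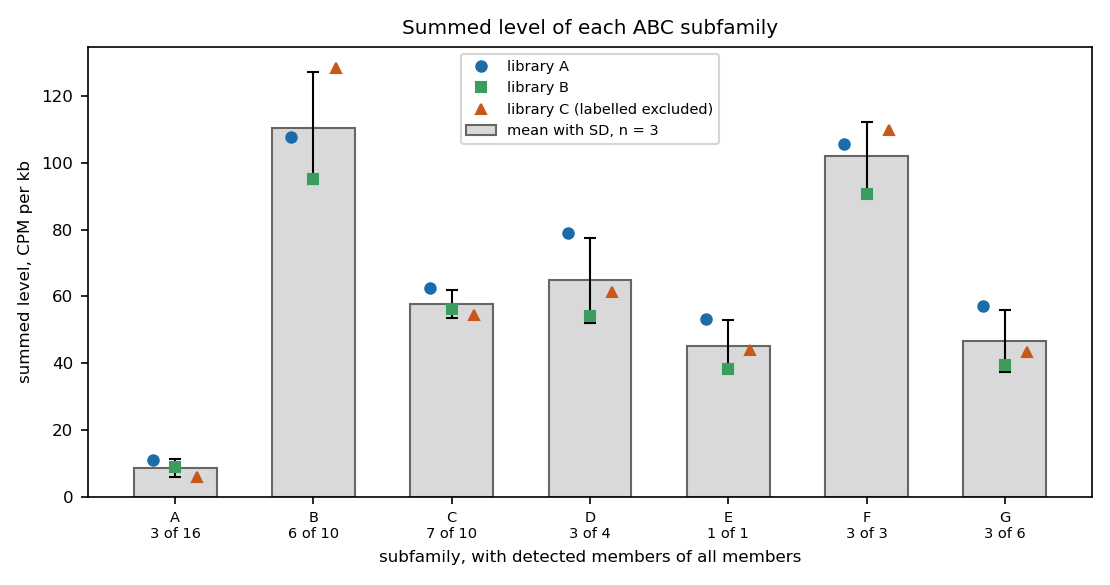
Summed level of each ABC subfamily in CPM per kb, with bars at the mean of 3 libraries, error bars of 1 SD, a point for each library and the number of detected members of all members under each letter. Subfamilies B and F stand highest and overlap, and subfamily A lies at 5.76 to 11.1 CPM per kb.

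A single gene held a large share of several sums. Abcd3 was 80.5% of subfamily D, Abcc3 was 54.9% of C, Abcf2 was 52.2% of F and Abca3 was 48.3% of A. The order of the subfamilies between the first and the last depended on the length assigned to a gene. With the median length of the coding transcripts in place of the longest, the order was B, G, F, C, D, E, A, and G rose from 10.7% to 23.3% of the sum, while D fell from 14.8% to 8.19%. Abcg2 carried the rise of G, since its coding transcripts have a longest length of 5717 bases and a median of 603. B stayed first and A last with either length, and also in CPM without any length.

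Several members lie next to each other in the genome, and neighbours were often unequal. On chromosome 5, Abcb1a (chr5:8660077-8748575) at 29.9 CPM per kb is followed within 49.6 kb by Abcb1b and, 27.4 kb further, by Abcb4, both near 0. The 5 genes Abca8b, Abca8a, Abca9, Abca6 and Abca5 lie in a row on chromosome 11, and Abca8b alone had any count, with 6, 1 and 5. The 3 genes Abca14, Abca15 and Abca16 on chromosome 7 held at most 2 counts in a library. Abca17, at 0 in every library, starts 0.881 kb from Abca3 and points away from it, and Abcd3 (chr3:121758774-121815302) lies 229 kb from Abca4, which was at 0.

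Reads that occur in more than one gene could move values between members. The 31-base stretches of each member's longest coding transcript in GENCODE M21 were therefore looked up in all transcripts of the other genes with counts listed. Abcb1a shared 23.2% of its stretches and Abcb1b 25.2%, mainly with each other. How reads of the shared stretches were divided was not tested. Most stretches of Abcb1b were not shared, and this gene had 0, 1 and 1 counts in A, B and C. Abcf2 (8.94%), Abcf1 (7.12%) and Abce1 (6.17%) shared stretches mainly with the pseudogenes Gm8345, Gm8844 and Gm6640, which were listed at 0 in all 3 libraries. Abcb4 shared 5.80%, mainly with Abcb1a, and 37 members shared under 1%.

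How far members differed between libraries, set against other genes, depended on the libraries compared. The SD of log2 CPM over 3 libraries had a median of 0.33 for the 26 detected members and 0.40 for all 11232 detected genes. It ran from 0.04 for Abcf1 to 0.95 for Abcc10. Between A and B alone, the median absolute log2 ratio was larger for the members, 0.43 against 0.33 for all detected genes. Of the 26 members, 10 were higher in B, beside 5648 of 11232 genes. The ratio of the highest to the lowest library was 3.46 for Abcc10, 3.07 for Abcg8, 2.63 for Abca2, 2.52 for Abcc6 and 2.34 for Abcb1a, while it was 1.16 for Abcb8 and 1.05 for Abcf1. The sum over all members was 477, 383 and 447 CPM per kb (436 ± 47.9, SD, n = 3).

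The one contrast the labels give is library C, left out by the study, against A and B. It was tested with edgeR's quasi-likelihood test with Benjamini-Hochberg adjustment over 13604 genes at 0.1, with 1 residual degree of freedom. The spread of C, a single library, had to be assumed from the pair, and the test compares these libraries and not conditions. None of the 29 members tested was called, beside 892 of 13604 genes (6.56%), of which 185 (1.36%) were higher in C and 707 (5.20%) lower. The other 21 members were too low to be tested, and Abcc8 and Abcg4 passed the filter through library B alone. DESeq2's Wald test called Abcb1a and Abcc10, and with 1 library in C the calls of neither tool are read as a result about the members. The median log2 fold change was -0.22 for the members and -0.10 for all genes tested, and 8 members were above 0.

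The log2 fold change of Abcb1a was 0.96 (SE 0.31, adjusted p = 0.132 by edgeR), and C was above A and B in level. Abcc10, a drug exporter, had 294, 464 and 167 counts, or 16.1, 20.2 and 5.84 CPM, and its log2 fold change was -1.64 (SE 0.51, adjusted p = 0.125 by edgeR), with C below both. DESeq2 gave adjusted p of 0.0624 for Abcb1a and 0.0985 for Abcc10, and edgeR gave 0.0237 and 0.0493 with no filter on low counts, so that their calls rested on the tool and the filter. Library C also had the most reads and the fewest genes with at least 10 counts, and the part of either in these values was not tested. Listed partners that passed the threshold are given by their change alone, with no measure of the spread of C itself. They are not read as a result about their lists. Npc1l1, the intestinal cholesterol importer, was lower in library C (log2 fold change -1.43, SE 0.30), as was Ahr, a regulator of xenobiotic response (-1.97, SE 0.44). Gstm3 was higher in C (1.58, SE 0.43), all by edgeR. Of 7 markers of stroma and endothelium, Vim had 46, 135 and 0 counts and passed the filter through A and B, so its call (adjusted p = 0.0612 by edgeR) carries no weight, 4 were at 0 in every library, and the list summed to 3.55, 6.84 and 0.245 CPM. No other marker list had a call.

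**Figure D4:**
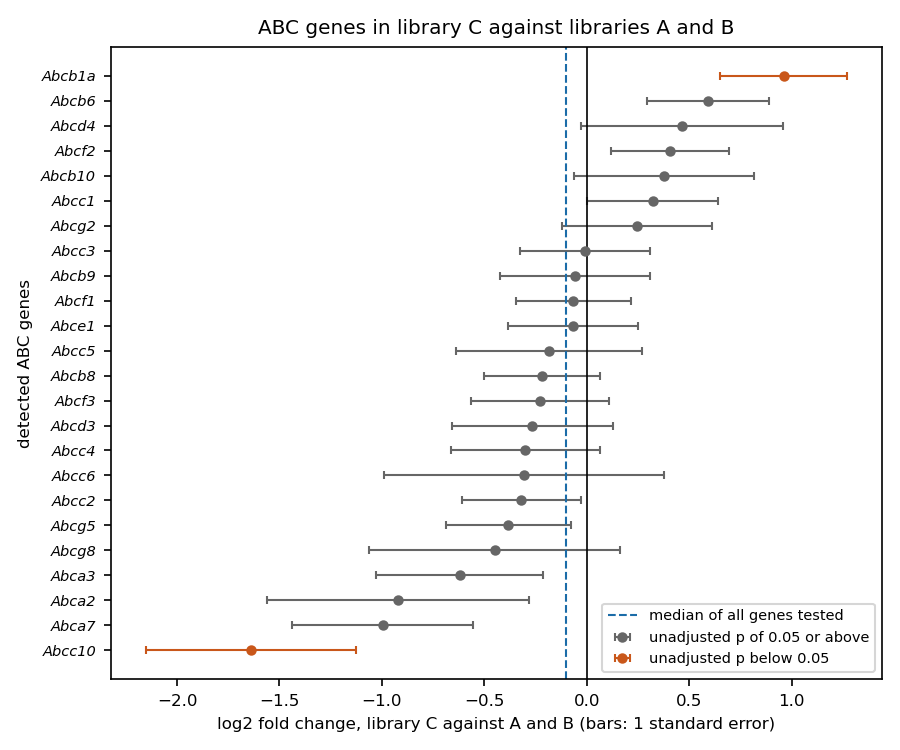
Log2 fold change of 24 of the 26 detected ABC genes in library C against libraries A and B, with bars of 1 standard error and a dashed line at the median of all 13604 genes tested (-0.10). Abcb1a at 0.96 is the highest and Abcc10 at -1.64 the lowest, and neither passed the adjusted threshold of 0.1 in edgeR's test.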

How the data were processed

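IEC were sorted from SIO after co-culture, and per the study's methods libraries were made with SMART-Seq2 and sequenced by Illumina. The authors trimmed reads with Trimmomatic 0.39, quantified Ensembl transcripts of GRCm38.p6 with Salmon 0.14.1, and used tximport for sums per gene. Deposited were estimated counts, as whole numbers. Symbols, coordinates and transcript lengths came from GENCODE M21 (GRCm38), which gave 35506 of 35824 genes a symbol; counts without one were at most 0.0454% of a library. Promoter windows came from RefSeq. SMART-Seq2 does not mark strand, so overlapping genes on opposite strands share reads where their exons meet.

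CPM, TMM factors and the quasi-likelihood test came from edgeR 4.0.16 in R 4.3.3, after filterByExpr, with Benjamini-Hochberg adjustment over all genes tested and a threshold of 0.1. Standard errors were derived from the log2 fold change and the F statistic. DESeq2 1.42.0 was run as an alternative. Members and subfamilies were summed and compared in Python 3.11.15. The test was run on simulated data in which all 3 libraries had the same spread, so that check cannot bear on the spread of C. The chi-square between A and B, 57.2 per gene, exceeded sampling noise, so each was counted as a separate library. The p-values of C against A and B rest on the spread between A and B and on that of other genes, which may be technical. They hold no measure of the spread of C. Intervals and floors cover counting error only.

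Length per kilobase was planned as the median over coding transcripts with the longest as alternative. These were exchanged after the lengths were seen, because the median of some members, among them Abcg2, Abcc1, Abcf3 and Abcb8, comes from fragments. Every member may be named; from the partner and marker lists the 3 most abundant genes, those called and marker genes near 0 were named. Some items are not reported here. The members, role classes and lists were chosen with earlier results of these data known.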

Additional observations from a re-analysis of the deposited data

How the results depend on the processing

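The number of members called in C against A and B was 0 with DESeq2's size factors, with plain totals and at an adjusted p of 0.05, but 2 with no filter on low counts, 1 with at least 10 counts in every library and 2 by DESeq2's Wald test. Abcb1a kept its sign throughout, with adjusted p from 0.0237 to 0.135, as did Abcc10, with 0.0493 to 0.134. Against B alone and A alone, Abcb1a changed by 1.23 and 0.75 and Abcc10 by -1.79 and -1.46 on the log2 scale. Genes called numbered 2402 with no filter, 1618 by DESeq2 and 276 at 0.05, against 892, and the share higher in C moved from 20.7% to 34.3% with no filter and 33.4% with at least 10 counts in every library.

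Shares of the summed level changed with length and with the leading members. With median lengths they were 1.04% for A, 14.7% for C, 8.19% for D, 5.39% for E, 21.1% for F and 23.3% for G. Without length correction they were 3.54% for A, 19.98% for C, 13.0% for D and 17.5% for F. Without the most abundant member of each subfamily, which leaves E empty, B held 37.2%, D 6.86%, F 26.4% and G 13.0%. Plain totals and rescaling to TPM leave shares as they are by construction, and a mean of 3 libraries cannot leave 1 SD when a library is dropped, so neither is a test of stability. With plain totals each sum stayed within 1 SD. Detected members numbered 26 to 29 under the alternatives. Roles under other lengths, chosen after seeing the data, gave 36.5% and 34.0% to the drug, conjugate and bile acid pumps against 26.5% and 27.8% to the genes with no membrane domain, for the median length and no length. No paired analysis was possible because the libraries form 1 group with no other group to pair with, and subfamilies were compared within libraries. Members under about 3 counts cannot be told from absent.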
